A study of Danio rerio with 12 samples.

Results

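The question was whether the partitioning of an mRNA between the MB and the HS fraction of zebrafish larvae differed between *chchd4a*-/- mutants and WT, gene by gene. For each gene the log2 ratio of MB over HS was formed in each genotype, and the WT ratio was subtracted from the mutant ratio. The result is called the difference below, and a positive difference means that the MB/HS ratio was higher in the mutant. All 12 libraries were used, and the genes were all those with more than 50 counts in the 6 libraries of each genotype, 23452 of the 31778 in the tables.

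The 4 groups were mutant MB, mutant HS, WT MB and WT HS, with 3 libraries each. Both genotypes were larvae of the AB strain at 5 days post fertilization (dpf) on the Tg(Xla.Eef1a1:mlsEGFP)cms1 background, in which EGFP is targeted to mitochondria. The mutants carry the allele labelled mia40a -/- and were picked as homozygous larvae by their fluorescence, whereas WT larvae came from crosses of wild-type siblings of the same line, so that the mutants were sorted by a phenotype and the WT larvae were not. Each library came from a pool of larvae, and the labels do not say whether equal replicate numbers share a clutch or a day. MB is the pellet at 14000*g* and HS the pellet at 100000*g* of what remained. From each fraction 2 μg of RNA, with ERCC spike-in RNA added, went into poly(A) capture, and the libraries were sequenced in pairs of 75 nt reads.

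The gene *chchd4a* encodes Mia40, the oxidoreductase of the intermembrane space that traps and oxidizes cysteine-rich proteins on their way into mitochondria. Some mRNAs for mitochondrial proteins are translated on the outer mitochondrial membrane, and others on free polysomes in the cytosol. The MB pellet holds mitochondria with the membranes and polysomes that sediment with them, among them rough ER, whereas the HS pellet collects lighter membranes and free polysomes. Equal amounts of RNA from each fraction went into poly(A) capture, which does not make the amounts of mRNA equal. Counts were scaled relative to library size. An MB/HS ratio of an mRNA therefore compares its level relative to the other mRNAs of each pellet. It does not tell which pellet held more of that mRNA. The MB side and the HS side below mean a positive and a negative log2 ratio on this relative scale. A difference can arise from either fraction. Ratios of mutant to WT within a fraction are relative in the same way. How a difference divides between MB and HS therefore depends on the scaling, and is given with the scaling of the main fit only.

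Gene counts per library ran from 45621399 in mutant MB replicate 1 to 96059775 in WT MB replicate 1. Spike-ins took 1.77% to 2.68% of the counts in mutant MB and 3.15% to 8.21% in mutant HS, against 2.88% to 7.22% in WT MB and 9.82% to 30.03% in WT HS. WT HS replicate 1 had the highest spike-in share and stood apart from the other libraries, with correlations of log2 CPM of 0.92 to 0.94 with the other 2 WT HS libraries, where the 3 mutant HS libraries reached 0.95 to 0.98 among themselves. Across the 23452 genes, the MB/HS ratios of WT replicate 1 correlated with those of WT replicates 2 and 3 at 0.66 and 0.58, and WT replicates 2 and 3 correlated with each other at 0.91, a description only, since genes are not independent. The main results are therefore given with and without replicate 1 of both WT fractions. The larvae were whole animals, and markers of their tissues were present in all 12 libraries, with sarcomere genes at 3.52% to 6.60% and crystallins at 1.03% to 5.34% of the gene counts.

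The mutated gene, *chchd4a*, stood at 6.68, 7.89 and 8.18 CPM (counts relative to library size, scaled by TMM) in mutant MB and 17.5, 11.4 and 27 CPM in mutant HS, against 4.57, 5.27 and 5.46 CPM in WT MB and 3.80, 12 and 12.4 CPM in WT HS. Its mRNA was thus detected in every mutant library, and its level does not check the genotype labels. Its MB/HS ratio differed by -0.40 on the log2 scale (SE 0.55, adjusted p = 0.79 in the edgeR quasi-likelihood fit), and the ratios of the genotypes overlapped.

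In the fit of all 12 libraries, edgeR called no gene past an adjusted p of 0.05, neither higher (0% of genes tested) nor lower (0%), and the smallest adjusted p was 0.056. At an unadjusted p under 0.05 it found 1964 genes with a higher ratio in the mutant (8.37%) and 1410 with a lower one (6.01%). DESeq2 called 563 and 233 genes, and limma voom with quality weights called 2809 and 2123. All 3 mutant ratios lay above all 3 WT ratios for 3556 genes (15.2%) and below them for 3516 (15%). Most differences were small, with a median of -0.07, a 25th percentile of -0.43 and a 75th of 0.39, and the upper tail was longer than the lower, with a 90th percentile of 1.01 and a 10th of -0.78.

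Without replicate 1 of both WT fractions, the same test called 45 genes higher (0.192% of genes tested) and 4 lower (0.0171%), and the common dispersion was 0.0504 instead of 0.0846. At an unadjusted p under 0.05, 1719 genes were higher (7.33%) and 1544 lower (6.58%) in that fit. With MB and HS libraries of equal replicate number treated as pairs, as a block within each genotype, the test called 691 higher (2.95%) and 105 lower (0.448%). The labels do not state this pairing, and WT replicates 2 and 3 were not clearly paired by number. The blocked test without replicate 1 of both WT fractions called 240 higher (1.02%) and 28 lower (0.119%). All 45 and all 4 genes called without the WT replicate were among the 691 and the 105, and of the 240 and 28, 231 and 24 were. The blocked calls lay close to the threshold. They were 0 in both directions when the mtDNA genes were left out of TMM scaling (smallest adjusted p 0.055, with 4723 genes at an unadjusted p under 0.05), and also without mutant replicate 1 or mutant replicate 2. Scaling moved the balance of the blocked calls as well, from 86.8% higher by TMM to 96.0% by library totals and 12.5% by spike-in totals.

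**Figure D1:**
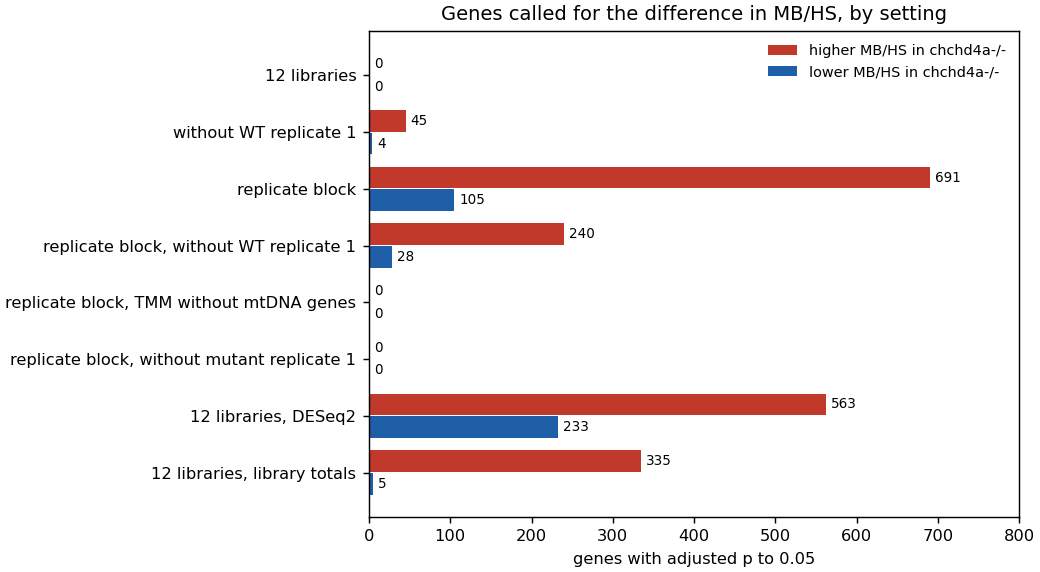
Number of genes called at an adjusted p of at most 0.05 under each of the settings named on the vertical axis, with genes of higher MB/HS ratio in the mutant and genes of lower ratio drawn apart. The fit of all 12 libraries has 0 and 0, the fit without replicate 1 of both WT fractions 45 and 4, and the blocked fit 691 and 105.

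Where the ratio was called higher in the mutant with the block, the difference came mainly from the HS fraction on the TMM scale. Spike-in shares were lower in the mutant in both fractions, in HS at 3.15% to 8.21% against 9.82% to 30.03%. Scaling by spike-ins would thus divide a difference otherwise between MB and HS, and these parts were not computed with it. Over these 691 genes, the median log2 ratio of mutant to WT was -0.32 in MB and -2.37 in HS. The HS part was the larger for 682 of them, and for 16984 of all 23452 genes tested. In 441 genes the ratio lay on the MB side in the mutant and on the HS side in WT, as in 2343 of all genes tested. Over the 691, the median MB/HS ratio was 0.37 in the mutant and -1.77 in WT. Of the 691, 0 were also called between mutant and WT in MB, where 9 of all genes were, and 670 in HS, where 4510 of all genes were. These comparisons share their libraries with the difference itself, so they describe it and do not test it again. The 105 lower genes had median mutant to WT ratios of -0.21 in MB and 1.36 in HS, and the HS part was the larger for 87 of them. Some abundant ones differed more in MB, such as *apoda.2* (-2.06 in MB, -0.32 in HS). Of the 105, 76 lay on the HS side in the mutant and on the MB side in WT, as did 2614 of all genes tested.

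**Figure D2:**
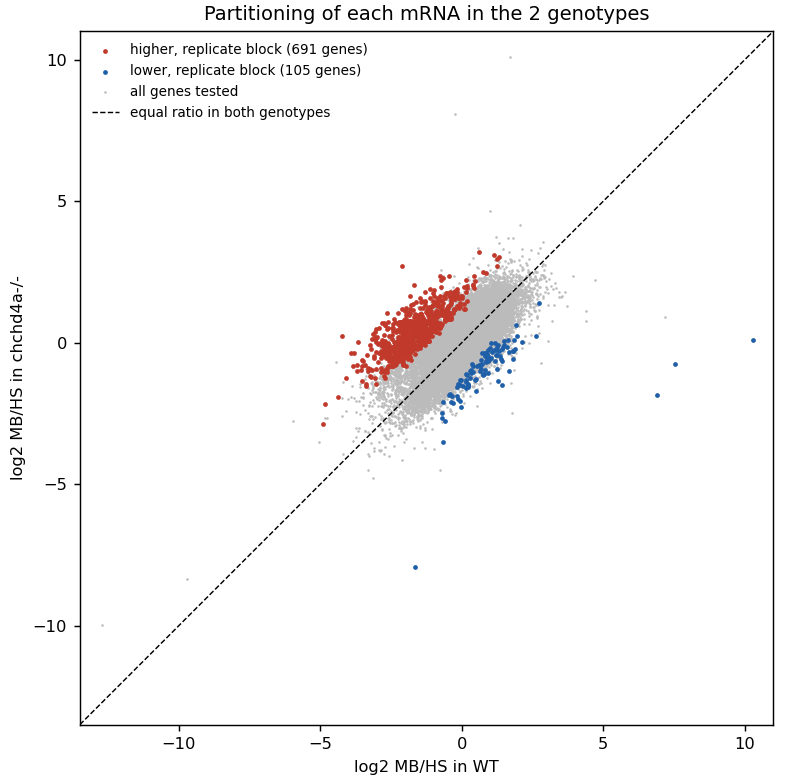
MB/HS ratio (log2) of each of the 23452 genes in the mutant against that in WT, with genes called higher or lower in the mutant by the blocked test in color and a dashed line where both genotypes are equal. The 691 higher genes have a median ratio of 0.37 in the mutant and -1.77 in WT, whereas the 105 lower ones have -0.82 in the mutant and 0.80 in WT.

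The genes called higher were spread over the range of abundance but were most frequent among abundant mRNAs. Abundance was the mean CPM over all 12 libraries, WT HS included. High WT HS values that raise the difference also raise this mean, so the ranking is not independent of the calls. The top quintile of abundance, from 27.8 CPM upward, held 249 of the 691 higher calls and 10 of the 105 lower calls, and the bottom quintile held 33 and 18. All 3 mutant ratios lay above all 3 WT ratios for 24.1% of the genes in the top quintile and for 9.23% of those in the bottom one.

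Several of the genes named by rule encode regulators of transcription and chromatin. *RERE*, a nuclear corepressor, had 36.7, 48.9 and 29.9 CPM in mutant MB and 26.8, 28.4 and 27.4 CPM in mutant HS, against 49.2, 24.4 and 27.8 CPM in WT MB and 636, 102 and 85.3 CPM in WT HS. Its mRNA was thus at a like level in both fractions of the mutant and in WT MB, and every WT HS library was higher than every library of the other 3 groups. The log2 MB/HS ratios were 0.46, 0.78 and 0.12 in the mutant and -3.69, -2.06 and -1.62 in WT. The difference was 3.50 (SE 0.87, adjusted p = 0.18) over 12 libraries, 2.29 (SE 0.29, adjusted p = 0.022) without replicate 1 of both WT fractions, and 2.90 (SE 0.49, adjusted p = 0.024) with the block, all by edgeR.

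*FOXP2*, a forkhead transcription factor of the brain, had ratios of 0.91, 1.25 and 0.09 in the mutant and -2.67, -2.14 and -1.75 in WT. Its levels were 14.2, 20.4 and 14 CPM in mutant MB and 7.52, 8.52 and 13.2 CPM in mutant HS, against 34.6, 17.5 and 17.5 CPM in WT MB and 220.2, 77.3 and 58.9 CPM in WT HS. The difference was 2.67 without the WT replicate (SE 0.36, edgeR adjusted p = 0.022). Again the WT HS libraries were the ones that stood above the rest, and WT HS replicate 1 the highest of them.

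*kdm7aa*, which encodes a histone demethylase, had 6.48, 8.67 and 5.15 CPM in mutant MB and 3.34, 2.98 and 3.91 CPM in mutant HS, against 10.2, 6.58 and 5.33 CPM in WT MB and 46.3, 23.1 and 17.9 CPM in WT HS. The difference was 2.74 (SE 0.34, edgeR adjusted p = 0.022 without the WT replicate), and the groups of ratios did not overlap, which the naming rule required. The HMG-box factor *tox2* differed by 2.68 in the same fit (SE 0.38, adjusted p = 0.022), with ratios of 0.49, 1.34 and -0.30 in the mutant and -2.73, -2.38 and -1.96 in WT.

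Signalling and trafficking genes completed the set that was named by rule among the 45. The G protein alpha subunit *gna11b* differed by 2.72, the Rab11 effector *rab11fip1a* by 2.68 and the calcium-binding copine *cpne8* by 2.67 without the WT replicate, with edgeR adjusted p of 0.022, 0.022 and 0.035. For *gna11b*, mutant HS held 2.71, 2.61 and 4.54 CPM, against 77.2, 34.4 and 26.6 CPM in WT HS, while MB held 4.4, 5.73 and 4.13 CPM in the mutant and 12.1, 6.62 and 6.5 CPM in WT. The catalytic calcineurin subunit *ppp3cca*, chosen after its values were seen, varied little within a genotype. Its ratios were 1.33, 1.67 and 1.14 in the mutant and -0.93, -0.70 and -0.82 in WT. The difference was 2.23 (SE 0.30) over 12 libraries with an edgeR adjusted p of 0.056, and 2.13 (SE 0.27, adjusted p = 0.022) without the WT replicate.

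Over all 12 libraries, where no gene was called, the rule named the largest positive differences among genes with over 1000 counts, a symbol, non-overlapping ratios and an unadjusted p under 0.05. *si:dkey-175m17.7* differed by 3.68, the telomerase-associated *tep1* by 3.67, the microtubule-binding *map7a* by 3.54, the Rap GTPase activator *SIPA1* by 3.51 and the adaptor subunit *AP3B2* by 3.48, each with an edgeR adjusted p of 0.18. For *tep1*, the ratios were 1.19, 1.12 and 0.77 in the mutant and -3.12, -1.83 and -1.73 in WT, and the test without the WT replicate called it (difference 2.80, SE 0.37, adjusted p = 0.022). The block called all of them, with adjusted p of 0.017 to 0.026.

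**Figure D3:**
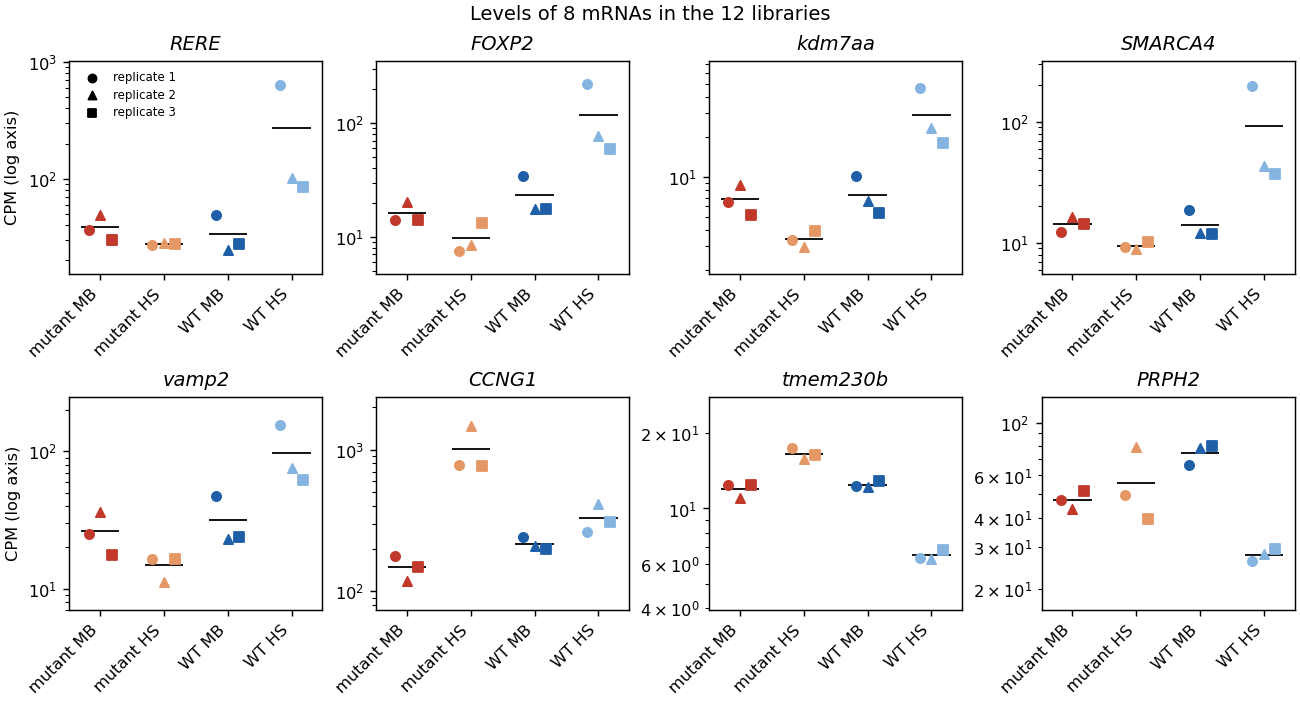
CPM on a log axis of 8 genes in each of the 12 libraries, by group (mutant MB, mutant HS, WT MB, WT HS), with 1 point per library and a line at the mean. *RERE*, *FOXP2*, *kdm7aa*, *SMARCA4* and *vamp2* are highest in the 3 WT HS libraries, *CCNG1* in the 3 mutant HS libraries, and *tmem230b* and *PRPH2* are lowest in WT HS.

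A wider list of 134 chromatin and Mediator genes was written after such values had been seen. Its counts therefore describe the pattern that led to the list and cannot test it. Its median difference was 0.46, and 0.40 without replicate 1 of both WT fractions, beside -0.07 and -0.09 over all genes tested. At an unadjusted p under 0.05, 55 of the 134 were higher and 9 lower, beside 8.37% and 6.01% of all genes tested. The block called 28 higher and 0 lower, beside 2.95% and 0.448%. *SMARCA4*, the ATPase of the BAF chromatin remodeller, had 12.4, 16.4 and 14.2 CPM in mutant MB and 9.20, 8.85 and 10.1 CPM in mutant HS, against 18.6, 12 and 11.9 CPM in WT MB and 199, 42.9 and 37 CPM in WT HS. Its difference was 3.32 over 12 libraries (SE 0.72, edgeR adjusted p = 0.18) and 2.32 without the WT replicate (SE 0.23, adjusted p = 0.018).

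Further genes of that list, chosen after their values were seen, behaved likewise. The BAF subunit *SMARCC1* had ratios of 1, 1.49 and 1.03 in the mutant and -2.56, -1.01 and -0.53 in WT, and the histone methyltransferase *kmt5c* had 0.78, 0.75 and 0.11 in the mutant and -2.3, -1.45 and -1.4 in WT. Each differed by 1.93 without the WT replicate (edgeR adjusted p = 0.022). The list was not uniform. *MED10*, a Mediator subunit, had the lowest difference of the list, -1.17 (SE 0.40, edgeR adjusted p = 0.22), with ratios of -1.68, -1.65 and -1.67 in the mutant and 0.59, -0.77 and -0.97 in WT.

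Of the most abundant genes that the block called higher, chosen after values were seen, several again act on chromatin or RNA. They were the chromatin remodellers *atrx* (1.96 with the block) and *chd4b* (2.23), the histone demethylase *kdm6bb* (1.98), *MPHOSPH8* of the HUSH silencing complex (1.91), the miRNA silencing factor *tnrc6c1* (1.77) and the translation initiation factor *eif5b* (1.81), all with edgeR adjusted p of 0.033 to 0.047. For *atrx*, the values were 118, 121 and 166 CPM in mutant MB and 72.2, 66.2 and 146 CPM in mutant HS, against 341, 250.1 and 238 CPM in WT MB and 1495, 521 and 458 CPM in WT HS. Here every WT MB library was also above every mutant MB library, although the log2 ratio of mutant to WT in MB, -1.03, was not called (adjusted p = 0.44). The most abundant of them, *CT583728.25*, differed by 2.41 with the block, and its mRNA lay on the HS side in all 6 pairs. Without replicate 1 of both WT fractions, the blocked edgeR adjusted p was 0.043 for *chd4b* and 0.05 for *atrx*. For the others named here it was 0.062 to 0.11, so they were not called.

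*MAP1A*, a microtubule protein of axons, had 177, 148 and 228 CPM in mutant MB and 134, 58 and 259 CPM in mutant HS, against 218, 247 and 244 CPM in WT MB and 1026, 478 and 605 CPM in WT HS. The 3 WT HS libraries thus stood above all others. The difference was 1.87 over 12 libraries (SE 0.62, edgeR adjusted p = 0.22) and 2.02 with the block (SE 0.47, adjusted p = 0.042). With the block but without replicate 1 of both WT fractions it was 1.62 (SE 0.42, adjusted p = 0.084).

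The list of 52 neuron genes had a median difference of 0.56, and 0.31 without the WT replicate. Of its members, 11 were higher and 1 lower at an unadjusted p under 0.05, beside 8.37% and 6.01% of all genes tested. The block called 5 higher and 0 lower, beside 2.95% and 0.448%. The vesicle SNARE *vamp2* was called without the WT replicate, at 2.36 (SE 0.39, edgeR adjusted p = 0.042). It held 25.2, 36.5 and 17.5 CPM in mutant MB and 16.6, 11.2 and 16.6 CPM in mutant HS, against 47.5, 23.1 and 24 CPM in WT MB and 155, 76.1 and 62 CPM in WT HS. The RNA-binding *ELAVL3*, the most abundant of the list, had HS-side ratios in both genotypes, -1.05, -0.38 and -1.71 in the mutant and -1.95, -2 and -2.15 in WT, and its difference of 0.89 was not called. *SYT15*, a synaptotagmin, had the lowest difference, -1.09 (SE 0.40, edgeR adjusted p = 0.24). For the level of an mRNA within 1 fraction, fewer cells of a type and less RNA per cell cannot be told apart in bulk libraries such as these. The cause of the differences in MB/HS ratio was not tested.

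Among cell surface and matrix genes, some families had a higher median ratio in the mutant and others did not. The 53 protocadherins, adhesion molecules of neurons, had a median MB/HS ratio of 1.20 in the mutant and 0.70 in WT. Their median difference was 0.40, or 0.22 without the WT replicate. At an unadjusted p under 0.05, 12 were higher and 0 lower, beside 8.37% and 6.01% of all genes tested. The block called 1 of them higher, beside 2.95%. The summed share of protocadherins had MB/HS log2 ratios of 1.81, 1.66 and 1.89 in the mutant and 0.37, 1.20 and 1.03 in WT (exact permutation test, two-sided, p = 0.1, the smallest that 3 against 3 allow, and 0.312 after adjustment over the 50 lists compared). The 56 collagens had a median difference of 0.63 that was 0.13 without the WT replicate, and leaving out 1 library gave 0.03 (WT HS replicate 1) to 1.06 (WT HS replicate 3). Laminins and integrins likewise had 0.31, and 0 without the WT replicate.

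Lower MB/HS ratios in the mutant were seen in other groups, and the first was the mitochondrial genome itself. The 13 protein-coding mtDNA genes, whose mRNAs are made and translated inside mitochondria, had a median difference of -1.34, and -1.28 without the WT replicate. All 13 lay below 0, as did 12906 of all 23452 genes tested. Of the 13, 10 were lower at an unadjusted p under 0.05, where 6.01% of all genes were. The block called 0 of them, beside 2.95% higher and 0.448% lower of all genes tested. The pair medians of the MB/HS ratio were 2.22, 0.18 and 1.21 in the mutant and 2.73, 2.36 and 2.61 in WT. The groups did not overlap, the mutant values spread widely, and mutant replicate 2 was the lowest.

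In contrast to the genes above, the median mtDNA difference lay mainly in the MB fraction on the TMM scale, relative to the other mRNAs of each fraction. The median mutant to WT ratio of the 13 genes was -1.51 in MB and -0.19 in HS. The mtDNA genes took 9.46%, 5.01% and 6.03% of the gene counts in mutant MB and 1.19%, 1.87% and 1.23% in mutant HS, against 17.7%, 11.7% and 14.1% in WT MB and 1.72%, 1.48% and 1.66% in WT HS. The share was thus lower in every mutant MB library than in every WT MB library, while the HS shares overlapped. The members varied. *mt-nd3*, a complex I subunit, had ratios of 0.86, -1.38 and -0.81 in the mutant and 2.41, 1.17 and 1.45 in WT, a difference of -2.15 (SE 0.52, edgeR adjusted p = 0.18). *mt-co1*, the most abundant, had 3.03, 1.35 and 2.69 in the mutant and 2.76, 2.63 and 3.10 in WT, and its difference of -0.43 (SE 0.61, adjusted p = 0.80) was within the spread. The difference of *mt-co1* and of *mt-nd5* (-0.35, SE 0.44) turned positive, to at most 0.09, without mutant replicate 2 in the blocked fit and by blocked limma voom. Both were lower in each mutant fraction, with log2 mutant to WT ratios of -1.30 and -1.39 in MB, and -0.87 and -1.04 in HS. Of these, only *mt-nd5* in HS was called (edgeR adjusted p = 0.034).

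Digestive enzymes of the exocrine pancreas, secreted proteins whose mRNAs are translated on rough ER, also had a lower relative level in mutant MB. The 31 genes had a median difference of -1.34, and -1.14 without the WT replicate. At an unadjusted p under 0.05, 19 were lower and 0 higher, beside 6.01% and 8.37% of all genes tested. The block called 1 lower, beside 0.448%. The median mutant to WT ratio was -1.57 in MB and -0.31 in HS, and the pair medians of the MB/HS ratio were -0.09, -0.58 and 0.55 in the mutant and 1.48, 0.77 and 1.20 in WT. The elastase *cela1.6* had 687, 389 and 579.7 CPM in mutant MB and 1581, 2077 and 802 CPM in mutant HS, against 2197, 913 and 1631 CPM in WT MB and 1224, 984 and 1332 CPM in WT HS, a difference of -1.85 (SE 0.55, edgeR adjusted p = 0.19). The trypsin gene *prss1* differed by -1.21 (SE 0.57, adjusted p = 0.36). *amy2al1*, an amylase gene of low level, was the 1 member above 0 (0.32, SE 0.54).

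Related genes were among the lower calls of the block. *pdia2*, the pancreatic protein disulfide isomerase, had 79.2, 63.7 and 82.9 CPM in mutant MB and 92.3, 73.2 and 84.3 CPM in mutant HS, against 189, 109 and 160.4 CPM in WT MB and 57.9, 52.9 and 84 CPM in WT HS, so that MB differed more than HS. The difference was -1.37 with the block (SE 0.31, edgeR adjusted p = 0.04). The astacin protease *c6ast4* and the apolipoprotein *apoda.2* differed by -1.83 and -1.76 in the blocked fit. Both were also lower in mutant MB (log2 mutant to WT -1.40 and -2.06, with adjusted p of 0.13 and 0.071 there). Without replicate 1 of both WT fractions, the blocked fit called neither these nor *pdia2* (edgeR adjusted p 0.059, 0.075 and 0.056). The 482 ER proteins of a supplementary list, of which 469 passed the filter, had a median difference of -0.16. At an unadjusted p under 0.05, 25 were higher and 58 lower, beside 8.37% and 6.01% of all genes tested. The block called 6 of the 469 higher and 3 lower, beside 2.95% and 0.448% of all genes tested. Apolipoproteins and vitellogenins (22 tested) had -0.69, with 0 higher and 2 lower at an unadjusted p under 0.05.

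Genes of the cytosolic translation machinery had lower ratios too, with a part from each fraction. All 83 cytosolic ribosomal protein genes lay below 0, where 12906 of all 23452 genes tested did. The 83 had a median difference of -0.89 (-0.62 without the WT replicate). At an unadjusted p under 0.05, 44 of them were lower and 0 higher, beside 6.01% and 8.37% of all genes tested. The block called 0, beside 0.448% lower and 2.95% higher of all genes tested. Their pair medians lay on the HS side in all 6 pairs, at -1.65, -2.31 and -2.34 in the mutant and -0.78, -1.56 and -1.44 in WT. The median mutant to WT ratio was -0.49 in MB and 0.42 in HS. The stalk protein gene *rplp0* had 1609, 953 and 1188 CPM in mutant MB and 4327, 7105 and 3604 CPM in mutant HS, against 2767, 1421 and 1511 CPM in WT MB and 3777, 3019 and 1996 CPM in WT HS, with a difference of -1.38 (SE 0.53, edgeR adjusted p = 0.26). *rpsa*, of the small subunit, differed by -0.67 (SE 0.46), and *rps8b*, with the smallest difference of the list, by -0.31 (SE 0.40).

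Other lists of protein synthesis and folding were divided. For comparison, 8.37% of all genes tested were higher and 6.01% lower at an unadjusted p under 0.05. The block called 2.95% and 0.448% of all genes. The 7 translation elongation factors had a median difference of -0.71 with 3 lower at an unadjusted p under 0.05. The 9 subunits of the CCT chaperonin, which folds actin and tubulin, had -0.67 with 5 lower. In both lists 0 were higher and the block called 0. The 24 keratins, markers of skin, had -0.91 (-0.72 without the WT replicate) with 10 lower, and the block called 1 of them. Among 65 initiation factors, 9 were higher and 15 lower, with a median of -0.24 (-0.06 without the WT replicate), and the block called 2 higher and 0 lower. Their summed share went the other way, with MB/HS log2 ratios of -0.39, -0.35 and -0.38 in the mutant and -0.49, -0.65 and -0.69 in WT. The 19 cytosolic tRNA synthetases had a median of -0.03 with 4 higher and 2 lower, and the block called 2 higher.

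**Figure D4:**
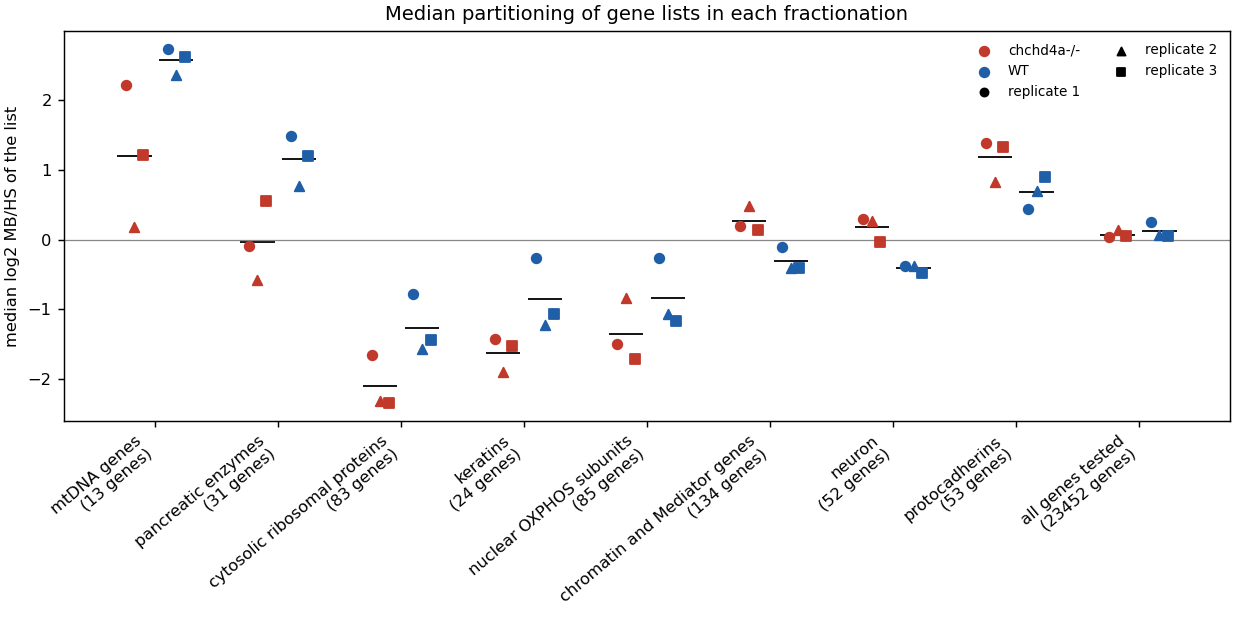
Median MB/HS ratio (log2) of the genes of each list in the 3 mutant and the 3 WT replicate pairs, with 1 point per pair and a line at their mean. The mtDNA genes lie at 0.18 to 2.22 in the mutant and 2.36 to 2.73 in WT, and the chromatin and Mediator genes at 0.13 to 0.48 in the mutant and -0.40 to -0.11 in WT. The chromatin and Mediator list was written after values were seen.

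**Figure D5:**
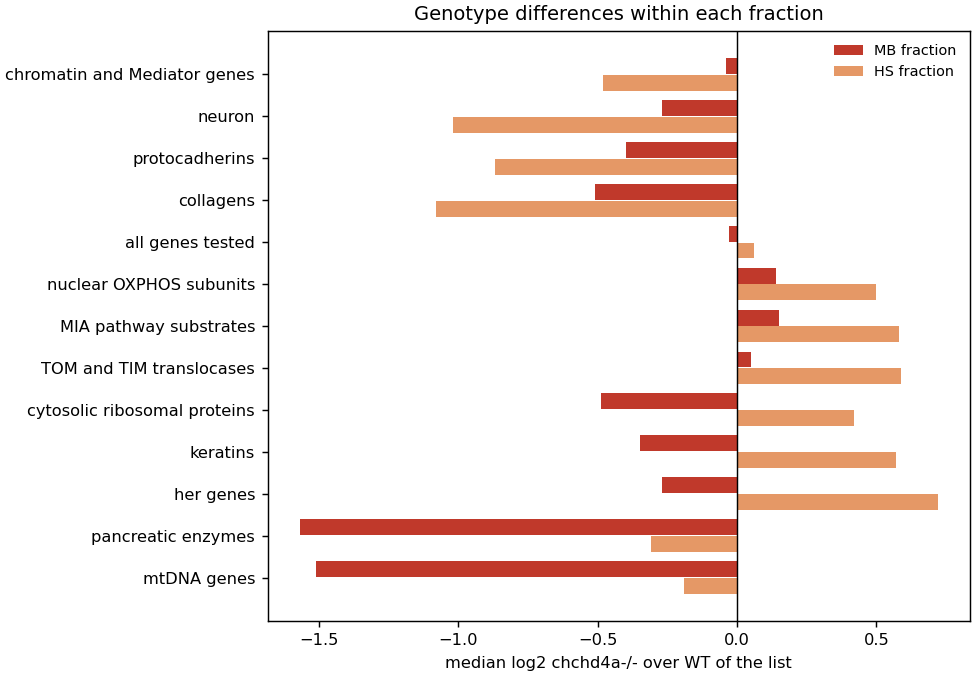
Median log2 ratio of mutant to WT over the genes of each list, in the MB fraction (upper bar) and in the HS fraction (lower bar). Ratios are on the TMM scale, relative to the other mRNAs of the same fraction. The chromatin and Mediator list and the list of her genes were written after values were seen. The mtDNA genes (-1.51 in MB, -0.19 in HS) and the pancreatic enzymes (-1.57 in MB, -0.31 in HS) differ mainly in MB, whereas the chromatin and Mediator genes (-0.04 in MB, -0.48 in HS) and the neuron genes (-0.27 in MB, -1.02 in HS) differ mainly in HS.

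Nuclear genes for mitochondrial proteins mostly had slightly lower ratios in the mutant over 12 libraries, and few were called. Of the 85 nuclear OXPHOS subunits, 80 lay below 0, as did 12906 of all 23452 genes tested. At an unadjusted p under 0.05, 0 of the 85 were higher and 9 lower, where 6.01% of all genes were lower. The median difference of the 85 was -0.35, and -0.17 without the WT replicate, beside -0.07 and -0.09 over all genes. Their pair medians of the MB/HS ratio overlapped, at -1.49, -0.84 and -1.71 in the mutant and -0.27, -1.06 and -1.17 in WT. Their summed share differed by -0.19, and by 0.08 without the WT replicate. The block called 0 in both directions, beside 2.95% higher and 0.448% lower of all genes tested. *ATP5F1B*, the beta subunit of ATP synthase and the most abundant, had 811, 712 and 843 CPM in mutant MB and 1208, 1241 and 875 CPM in mutant HS, against 730.0, 747 and 819.7 CPM in WT MB and 709.9, 844 and 945 CPM in WT HS. Its ratios overlapped between the genotypes (difference -0.37, SE 0.32, edgeR adjusted p = 0.65). *cox7a2l*, an assembly factor of supercomplexes, had the lowest difference, -1.19 (SE 0.37, adjusted p = 0.21), with ratios of -1.40, -1.60 and -1.36 in the mutant and 0.47, -0.53 and -0.54 in WT.

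The 32 genes for substrates of the MIA pathway, the small cysteine-rich proteins that Mia40 imports, had a median difference of -0.40. Without the WT replicate it was -0.15, and over all genes tested these medians were -0.07 and -0.09. Of the 32, 29 lay below 0, as did 12906 of all 23452 genes. Their pair medians of the MB/HS ratio overlapped, at -1.48, -0.79 and -1.81 in the mutant and -0.25, -1.36 and -1.25 in WT. Their summed share differed by -0.02, and by 0.27 without the WT replicate. At an unadjusted p under 0.05, 1 was higher and 3 were lower, beside 8.37% and 6.01% of all genes tested. *CHCHD7* was the lowest, with ratios of -1.86, -1.34 and -2 in the mutant and 0.45, -0.79 and -1.20 in WT and a difference of -1.08 (SE 0.44, edgeR adjusted p = 0.29). *UQCRH*, the complex III hinge protein and the most abundant of the list, differed by -0.28 (SE 0.36). The highest was *ccs*, the copper chaperone of superoxide dismutase, at 2.46 over 12 libraries (SE 0.88, adjusted p = 0.24). With the block it was at 2.11 (SE 0.48, adjusted p = 0.04), and at 1.59 there without the WT replicate (SE 0.43, adjusted p = 0.095). Its levels were low, 0.343, 0.618 and 0.412 CPM in mutant MB and 0.229, 0.445 and 0.404 CPM in mutant HS, against 1.09, 0.511 and 0.538 CPM in WT MB and 6.71, 1.70 and 0.952 CPM in WT HS.

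The block called 2.95% of all genes tested higher and 0.448% lower. Among the 20 genes of the TOM and TIM translocases it called 0 lower and 1 higher, the import receptor *tomm70a*. Its mRNA had 24.5, 33.9 and 23.4 CPM in mutant MB and 17.3, 20.6 and 17.4 CPM in mutant HS, against 34.2, 23.8 and 22.3 CPM in WT MB and 179.8, 47.2 and 43.2 CPM in WT HS. The difference was 1.99 (SE 0.39, edgeR adjusted p = 0.03) with the block, 2.32 (SE 0.63, adjusted p = 0.18) over 12 libraries and 1.5 (SE 0.27) without the WT replicate, where it lay just outside the adjusted threshold. The median of the list was -0.58, with 2 higher and 4 lower at an unadjusted p under 0.05, beside 8.37% and 6.01% of all genes. *timm23b* was the lowest at -1.21 (SE 0.76) and had under 1 CPM in every library, and *TIMM17A*, the most abundant, was at -0.07 (SE 0.29).

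The SLC25 carriers of the inner membrane held a larger single difference. *SLC25A1*, the citrate carrier, had 0.428, 0.353 and 0.290 CPM in mutant MB and 0.305, 0.169 and 0.420 CPM in mutant HS, against 0.510, 0.183 and 0.249 CPM in WT MB and 12.3, 3.02 and 2.52 CPM in WT HS. WT HS was thus the only group with more than 1 CPM. The difference was 4.48 over 12 libraries (SE 0.87, edgeR adjusted p = 0.17), 3.90 without the WT replicate (SE 0.51, adjusted p = 0.022) and 4.31 with the block (SE 0.49, adjusted p = 0.017). Over the 58 carriers tested the median was -0.02. At an unadjusted p under 0.05, 5 were higher and 7 lower, beside 8.37% and 6.01% of all genes tested. The block called 3 higher and 0 lower, beside 2.95% and 0.448%. The ADP/ATP carrier *SLC25A5*, the most abundant, had ratios of -1.29, -2.05 and -1.84 in the mutant and -0.20, -1.25 and -1.15 in WT (difference -0.85, SE 0.38, adjusted p = 0.33). *slc25a47a*, a carrier known from liver, was the lowest at -1.27 (SE 0.45, adjusted p = 0.23).

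The 76 mitochondrial ribosomal proteins had the same medians as the OXPHOS genes, -0.35 and -0.17 without the WT replicate. Over all genes tested they were -0.07 and -0.09. Of the 76, 62 lay below 0, as did 12906 of all 23452 genes. The summed share of the 76 differed by -0.12, and by 0.15 without the WT replicate. At an unadjusted p under 0.05, 0 were higher and 8 lower, beside 8.37% and 6.01% of all genes tested. There were 0 blocked calls, beside 2.95% higher and 0.448% lower of all genes tested. For citrate cycle enzymes, enzymes of fatty acid oxidation, mitochondrial chaperones and proteases, and serine and one-carbon enzymes, the medians ran from -0.25 to 0.06, with at most 1 gene per list and direction at an unadjusted p under 0.05.

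Of the single genes with a lower ratio in the mutant, *tmem230b* and *CDK2AP1* were called without the WT replicate and in both blocked fits. *tmem230b*, a transmembrane protein of vesicle traffic in human cells, had 12.4, 11 and 12.4 CPM in mutant MB and 17.4, 15.8 and 16.3 CPM in mutant HS, against 12.3, 12.2 and 12.9 CPM in WT MB and 6.36, 6.28 and 6.85 CPM in WT HS. Replicates agreed closely, MB did not separate the genotypes, and every mutant HS library was above every WT HS library. The difference was -1.43 (SE 0.22, edgeR adjusted p = 0.03) without the WT replicate and -1.41 (SE 0.23, adjusted p = 0.17) over 12 libraries. *CDK2AP1*, a cell cycle regulator, had ratios of -1.37, -1.43 and -1.10 in the mutant and 0.47, 0.41 and 0.41 in WT, a difference of -1.76 in both fits (adjusted p = 0.037 without the WT replicate, SE 0.28).

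The remaining 2 lower calls without the WT replicate were *CR388378.3* and ENSDARG00000109392, both at 0 in all 3 WT HS libraries, so no fold is given. The first had 0.573, 0.737 and 0.404 CPM in mutant HS with 0.244 to 0.405 CPM in the 6 MB libraries. ENSDARG00000109392 had 3.17, 4.99 and 1.21 CPM in mutant HS, with 2.50, 3.22 and 4.18 CPM in mutant MB against 0.415, 2.87 and 2.64 CPM in WT MB.

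On the negative side, the same rule over 12 libraries named *znf1011* at -4.24, *si:ch73-14h10.4* at -2.85, *CR848040.3* at -2.70, *znf1179* at -2.66, *si:dkey-88n24.5* at -2.42 and *CCNG1* at -2.17, with edgeR adjusted p of 0.17 to 0.25, so none was called. Cyclin G1 (*CCNG1*), a target of p53 in mammals, was the most abundant of them. It had 178, 117 and 148 CPM in mutant MB and 784, 1471 and 772 CPM in mutant HS, against 242, 209.9 and 198 CPM in WT MB and 263, 412 and 309 CPM in WT HS. All mutant HS libraries were above all WT HS libraries, and the mutant MB libraries were below those of WT. The block called it at -2.14 (SE 0.45, adjusted p = 0.034), but not without replicate 1 of both WT fractions (adjusted p = 0.081). The block also called *znf1179*, a zinc finger gene, at -2.47 (SE 0.41, adjusted p = 0.024). In contrast, *znf1011* was not called (adjusted p = 0.063) and its mutant ratios scattered from -3.68 to 1.09.

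Photoreceptor genes were found on both sides. The 56 phototransduction genes had a median difference of 0 (0.18 without the WT replicate). At an unadjusted p under 0.05, 6 were higher and 8 lower, beside 8.37% and 6.01% of all genes tested. There were 2 blocked calls in each direction, beside 2.95% higher and 0.448% lower. Of these, the green cone opsin *opn1mw1* had ratios of -0.19, -1.08 and 0.36 in the mutant and 1.41, 1.22 and 1.34 in WT, and differed by -1.63 with the block (SE 0.38, edgeR adjusted p = 0.044). Outside this list, *PRPH2*, a structural protein of photoreceptor outer segment discs, had 47.4, 43.4 and 51.8 CPM in mutant MB and 49.7, 79.1 and 39.4 CPM in mutant HS, against 66.3, 78 and 79.8 CPM in WT MB and 26.2, 28.2 and 29.6 CPM in WT HS. Its difference was -1.59 with the block (SE 0.34, adjusted p = 0.036). Both fractions contributed, each with non-overlapping groups. Without replicate 1 of both WT fractions, the blocked fit called neither *PRPH2* nor *opn1mw1* (edgeR adjusted p 0.061 and 0.088).

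Other abundant genes with a lower ratio under the block were *zgc:86896* (-2.01), *RNASEK* (-1.21), *zgc:65895* (-1.36), *si:dkey-35i13.1* (-1.24) and *olfm1b*, a secreted olfactomedin of neurons (-1.22), with edgeR adjusted p of 0.03 to 0.044. These and the other most abundant blocked calls were chosen after values were seen. Without replicate 1 of both WT fractions, the blocked fit called none of the genes just listed (edgeR adjusted p 0.053 to 0.07). In *olfm1b* the MB values were 42.4, 43.4 and 36.7 CPM in the mutant and 42.8, 44.5 and 43.2 CPM in WT, whereas the HS values were 69.2, 87.7 and 59.6 CPM in the mutant and 24.9, 40.2 and 34.7 CPM in WT.

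The her genes, Notch targets of the Hes family, formed a small group of transcription factor genes with lower ratios. This list of 15 tested genes was written after values were seen, so its counts describe the pattern and cannot test it. Its median difference was -1.05 (-0.88 without the WT replicate), and all 15 lay below 0, as did 12906 of all 23452 genes tested. At an unadjusted p under 0.05, 9 were lower and 0 higher, beside 6.01% and 8.37% of all genes tested. The block called 4 lower, beside 0.448%. *her4.4* had ratios of -0.55, -0.48 and 0.29 in the mutant and 1.64, 2.11 and 1.57 in WT, a difference of -2.06 with the block (SE 0.35, edgeR adjusted p = 0.024). Copies of *her4* are near-identical, and reads may have been divided between them, so single values are uncertain. *her6*, the most abundant, differed by -0.48 (SE 0.25, adjusted p = 0.41). The 23 Hox factors had a median of -0.49 with 1 higher and 3 lower at an unadjusted p under 0.05, but *hoxb3a*, the most abundant, was the highest at 1.35 (SE 0.45, edgeR adjusted p = 0.22). Their summed share followed it, with MB/HS log2 ratios of -0.21, 0.23 and -0.24 in the mutant and -0.88, -0.58 and -0.82 in WT.

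Of the lists not yet described, liver plasma proteins had a median difference of -0.42 (2 of 32 lower at an unadjusted p under 0.05), hemoglobins -0.41 (0 of 6), crystallins -0.29 (0 lower and 1 higher of 53) and sarcomere genes -0.06 (7 lower and 4 higher of 76). The 20 ER chaperones had -0.02 and the 17 genes of the integrated stress response -0.17. Among all genes tested, 8.37% were higher and 6.01% lower at that unadjusted p. The 50 lists were compared as summed shares as well, and in 16 of them the genotypes did not overlap, with the mutant ratios above in 10 and below in 6. These have the smallest p that the exact permutation test allows for 3 against 3 pairs, 0.1 (two-sided, 0.312 after adjustment), so the test could not pass the threshold.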

How the data were processed

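MB and HS libraries of *chchd4a*-/- and WT larvae were analysed, 3 per group. The authors deposited expected counts per gene, estimated with Salmon 1.4.0 and not scaled to library size, of which 30.5% are not whole numbers. Here they were rounded, and the 2 tables were joined by gene ID. Of the genes, 6469 took their symbol from the study's supplement and 22682 from a reference name table, some in capitals, and 2627 had none. All 12 value columns were used.

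Genes with more than 50 counts in each genotype were kept, and the 92 spike-ins entered neither the tests nor the library sizes. TMM factors ran from 0.641 to 1.5. edgeR 4.0.16 in R 4.3.3 fitted 4 group means with a prior count of 0.125 and quasi-likelihood F tests, and p-values were adjusted by Benjamini-Hochberg over all 23452 genes. Residual degrees of freedom were 8, and 4 with the block. An adjusted p of at most 0.05 was a call. Ratios per replicate pair MB and HS libraries of equal number. Lists were described by counts and medians, without a set test, and their summed shares were compared by exact permutation tests (two-sided). The scripts were tested on simulated data. The rest was computed with scipy 1.17.1, pandas 2.3.3 and numpy 2.4.6 in Python 3.11.15.

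MB and HS libraries of 1 genotype with the same replicate number were treated as pairs, since deviations from group means of same-numbered MB and HS libraries correlated at 0.30, 0.35 and 0.56 in the mutant and 0.60, 0.56 and 0.46 in WT, over 18831 genes with a mean of at least 1 CPM. Unequal numbers correlated at -0.58 to 0.52. The highest of these were WT replicates 2 and 3, which are therefore not clearly paired by number. Nothing says that the replicates are separate cultures or clutches, so p-values measure the spread between these libraries.

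Genes were named by rule: *chchd4a*; the 12 largest differences per direction among called genes with over 1000 counts, a symbol and non-overlapping ratios, or the 6 largest with an unadjusted p under 0.05 where none was called; 6 per direction without replicate 1 of both WT fractions; and, per list, the members with the highest and the lowest difference and the highest level. Exceptions are marked in the text. The genes, lists and settings were chosen with earlier results of these data known. Alternatives were DESeq2 1.42.0, limma 3.58.1 (voom with quality weights), other scalings and filters, a test against a difference of 0.5 (glmTreat), a prior count of 2, an adjusted p of 0.01, the block, and leaving out libraries. The authors' comparisons, protein features and sequences were not used here. The results of some genes are not reported here.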

Additional observations from a re-analysis of the deposited data

Results flagged for a closer look

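The genes given here had a difference between the genotypes in their MB/HS ratio that the interaction test of edgeR called both with the replicate block and without replicate 1 of both WT fractions. The log2 differences with the block are given. They were 4.31 for *SLC25A1*, 3.28 for *tep1*, 3.11 for *rab11fip1a*, 3.11 for *cpne8*, 2.94 for *FOXP2*, 2.93 for *gna11b*, 2.90 for *RERE*, 2.89 for *SMARCA4*, 2.88 for *kdm7aa* and 2.87 for *tox2*. Smaller ones were 2.53 for *SMARCC1*, 2.38 for *vamp2*, 2.27 for *kmt5c* and 2.21 for *ppp3cca*. Lower ratios in the mutant were -1.74 for *CDK2AP1* and -1.41 for *tmem230b*. For each of these genes all 3 mutant ratios lay on 1 side of all 3 WT ratios. The same held for every gene called without replicate 1 of both WT fractions. The naming rule also required it for some of the genes given here. It is therefore no further evidence for them. None of them was called over 12 libraries without the block, where no gene was called. Groups of 3 libraries were not tested for single outlying libraries.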

How the results depend on the processing

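Calls are given as higher and lower in the mutant. Over 12 libraries without the block the counts were 0 and 0, and they were also 0 and 0 with TMM without mtDNA genes, without a filter and with at least 10 counts in every library. A prior count of 2, a test against a difference of 0.5 and an adjusted p of 0.01 gave 0 and 0 as well, as they must, since the first does not enter the test and the others are stricter. They were 563 and 233 by DESeq2, 2809 and 2123 by limma voom, 335 and 5 by library totals, 0 and 4 by spike-in totals, and 45 and 4 without replicate 1 of both WT fractions. Leaving out 1 library gave 0 to 12 and 0 to 2, with 12 and 2 without WT HS replicate 1 and 1 and 1 without mutant HS replicate 3. With the replicate block they were 691 and 105. The following alternatives, all with the block, were chosen after seeing the data: 240 and 28 without replicate 1 of both WT fractions, 1674 and 70 by library totals, 8 and 56 by spike-in totals, 0 and 0 with TMM without mtDNA genes, 1569 and 514 by DESeq2, 2764 and 2102 by limma voom, and 794 and 132 with at least 10 counts. Without 1 replicate pair, the blocked counts were 323 and 24 (WT 2), 969 and 86 (WT 3), 0 and 0 (mutant 1), 0 and 0 (mutant 2), and 951 and 184 (mutant 3). The cause of these changes was not tested. The median over all genes moved by 0.25 under library totals and by -0.67 under spike-in totals (0.23 and -0.77 with the block), and single differences under them are relative to that shift.

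Of 73 named genes over 36 settings, 8 changed sign at least once, in 19 values, none of them called in that setting or over 12 libraries. *chchd4a* was at 0.01 by spike-in totals. *mt-nd5* was at 0.09 by blocked voom and 0.08 without mutant pair 2, *mt-co1* at 0.05 and 0.03, and *uqcrb* at 0 without mutant pair 2. With 1 library left out, *UQCRH* ran from -0.45 to 0.05 (without mutant HS replicate 3), *TIMM17A* from -0.18 to 0.04 and *her7* from -0.37 to 0.11. *UQCRH* was also at 0.03 without mutant pair 3. *TIMM17A* was at 0.02, 0.03 and 0.04 without WT HS 3, WT MB 2 or mutant HS 3, and at 0.04, 0.05 and 0.10 without WT pair 3, mutant pair 1 or mutant pair 3. *amy2al1* was at -0.09 without WT pair 2. *her7* was at 0.04, 0.11 and 0.08 without WT HS 1, WT MB 3 or mutant HS 2, and at 0.08 by blocked voom. With the block or another alternative, 62 named genes were called at least once. Over the alternatives, the median of the mtDNA genes ran from -1.78 to -0.63, that of the ribosomal proteins from -1.07 to -0.40, that of the pancreatic enzymes from -1.65 to -0.90, that of the chromatin and Mediator genes from 0.36 to 0.55 and that of the neuron genes from 0.17 to 0.81. Depth limits the rarest named genes, such as *her7*, *timm23b*, *ccs* and *SLC25A1*, most.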

Other observations

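Over all genes tested, 8.37% were higher in the mutant and 6.01% lower at an unadjusted p under 0.05. Of 373 SLC transporters outside the SLC25 family, 24 were higher and 14 lower, both below these shares, with a median difference of -0.05, and the blocked edgeR test called 13 higher and 0 lower, against 2.95% and 0.448% of all genes. Of 116 potassium channels, 13 were higher and 3 lower (median 0.09), and of 51 classical cadherins and semaphorins, which guide axons and hold cells together, 6 were higher and 1 lower (median 0.39, and 0.09 without replicate 1 of both WT fractions). Among other cell surface lists, 37 adhesion GPCRs had a median MB/HS ratio of 0.49 in the mutant and 0.63 in WT. The 58 receptors for glutamate, GABA and glycine had 0.74 in both genotypes. For 39 claudins the median difference was 0.01, or -0.23 without the WT replicate. Summed over 42 claudins, the share had MB/HS log2 ratios of 1.20, 0.78 and 0.87 in the mutant against 0.39, 0.53 and 0.34 in WT. The 23 genes of the signal recognition particle and the ER translocon, which bring secreted proteins to the ER, had 5 higher and 7 lower and a median of -0.50 with and without the WT replicate. Of 45 proteasome subunits, 4 were higher and 0 lower, with a median of -0.10.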
